A study of Mus musculus with 16 samples.

Results

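Genes of iron homeostasis, several of whose mRNAs are known to be controlled after transcription, were followed in an Eef1d exon 5 knockout (KO) series of Hepa1-6 cells, a mouse hepatoma line. The group was a list of 8 named genes, taken by gene symbol from 22392 symbols in the table: Fth1, Ftl1, Tfrc, Slc40a1, Slc11a2, Flvcr1, Aco1 and Ireb2. The table holds 28 of its 67139 transcripts for them, and each gene is given by the transcript with the largest sum over the 16 count columns, with all 3 Flvcr1 transcripts shown. Eef1d encodes a subunit of the complex that recharges elongation factor eEF1A, and its exon 5 is an alternatively spliced, in-frame exon. WT cells and clones #1, #2 and #3 (KO1, KO2 and KO3) were grown in the same medium without any other treatment, and each KO line is a single-cell clone from CRISPR/Cas9 editing with a pair of guide RNAs beside exon 5 (the pair S1 and S4 for KO1 and KO2, S2 and S4 for KO3). Each line gave 2 replicates, and each replicate lysate gave 1 RNA-seq and 1 Ribo-seq library, which makes 16 libraries. The study's methods call the replicates biological, and the sources used here do not say whether they were separate cultures of a line, so p-values measure the spread between these samples.

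Iron-responsive elements (IREs) are short stem-loops in the untranslated regions (UTRs) of mRNAs. Iron regulatory proteins 1 and 2, encoded by Aco1 and Ireb2, bind them when iron is scarce. Bound at an IRE in the 5′ UTR, as in ferritin mRNAs, they keep ribosomes from starting translation, and bound at IREs in the 3′ UTR of Tfrc mRNA they protect that mRNA from decay. Fth1 and Ftl1 encode the heavy and light chains of ferritin, which stores iron; Tfrc encodes transferrin receptor 1, which takes up transferrin-bound iron; Slc11a2 encodes DMT1, which carries ferrous iron into the cytosol; Slc40a1 encodes ferroportin, which exports iron; and Flvcr1 encodes a transporter described as a heme exporter and, later, as a choline transporter. Liver cells store much of the iron of the body.

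The IREs are shown first, because their place in the mRNA divides the genes. In the annotation, an IRE was searched as an unpaired C, 5 paired bases, the loop CAGTGN and the 5 bases that pair back, with A-T, G-C and G-T pairs allowed, on the transcript strand only. A full match was found in the 5′ UTR of Fth1, Ftl1 and Slc40a1 and at 4 places in the 3′ UTR of Tfrc. The second Slc11a2 transcript had 1 match with 4 pairs in its 3′ UTR. No match was found in Aco1, Ireb2 or Flvcr1. A match is a description of the letters and not proof of a working element, and no match says only that these letters were not in the annotated UTRs. Among the 22240 genes with an annotated transcript that could be searched, 18 (0.0809%) had a full match in the 5′ UTR and 104 (0.468%) in the 3′ UTR. With at least 4 pairs, 698 (3.14%) had a match in the 3′ UTR. These shares are for the chosen transcript of each gene, and the Slc11a2 match is on another transcript. The sequences below are of GRCm38, 5′ to 3′ on the transcript strand with T for U, and capitals mark the unpaired C and the loop. Each lies within 1 exon.
Fth1, 5′ UTR, chr19:9982732-9982761 (+): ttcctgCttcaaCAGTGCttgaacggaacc
Ftl1, 5′ UTR, chr7:45459778-45459807 (-): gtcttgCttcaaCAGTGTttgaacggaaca
Slc40a1, 5′ UTR, chr1:45925464-45925493 (-): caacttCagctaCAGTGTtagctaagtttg
Tfrc, 3′ UTR, chr16:32631219-32631248 (+): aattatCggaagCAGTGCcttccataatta
Tfrc, 3′ UTR, chr16:32631598-32631627 (+): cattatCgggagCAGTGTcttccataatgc
Tfrc, 3′ UTR, chr16:32631663-32631692 (+): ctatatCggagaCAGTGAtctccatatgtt
Tfrc, 3′ UTR, chr16:32631710-32631739 (+): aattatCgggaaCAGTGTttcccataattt
Slc11a2, 3′ UTR of ENSMUST00000138843.7, chr15:100395152-100395181 (-): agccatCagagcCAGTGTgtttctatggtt

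The loop of the Fth1 match began 99 bases into a 5′ UTR of 224 bases, that of Ftl1 90 bases into 253, and that of Slc40a1 102 bases into 319. The loops of the Tfrc matches began at bases 895, 1274, 1339 and 1386 of a 3′ UTR of 2458 bases, and the Slc11a2 match began 44 bases after the coding sequence. Not every transcript of these genes carries its IRE. The IRE was in 4 of 5 Fth1 transcripts, 2 of 3 Ftl1 transcripts and 1 of 4 Slc40a1 transcripts, where the other 3 start further upstream and leave it out. All 4 Tfrc matches were in the transcript used here, and the 2 shorter Tfrc transcripts had none.

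**Figure D1:**
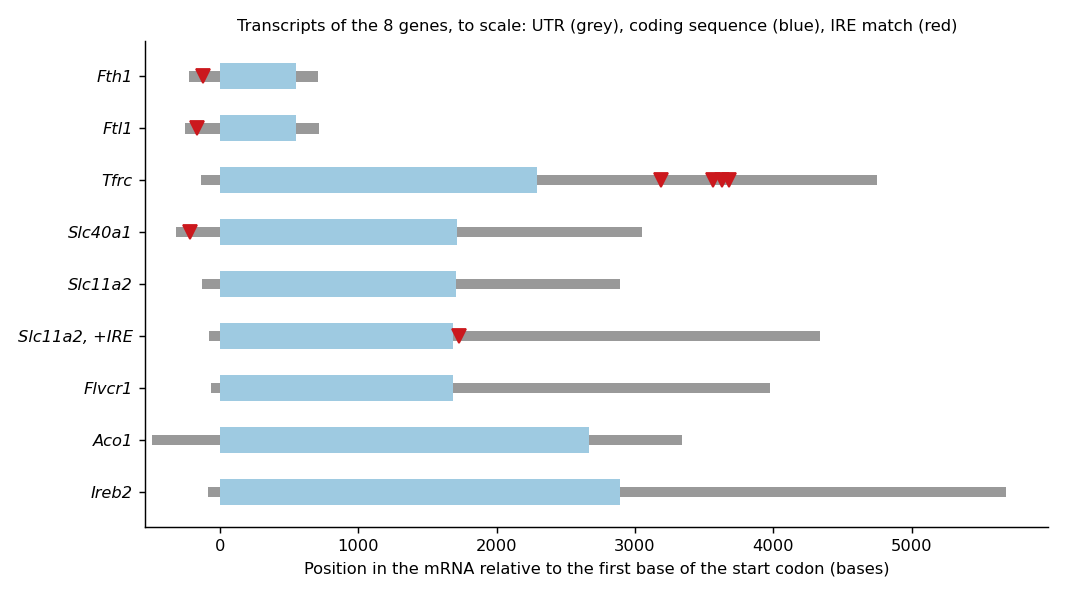
The transcript of each gene is drawn to scale along the x axis in bases from the start codon, with UTRs in grey, the coding sequence in blue and IRE matches as red triangles. Matches lie before the coding sequence in Fth1, Ftl1 and Slc40a1 and after it in Tfrc and, with 4 pairs only, in the second Slc11a2 transcript (the row "Slc11a2, +IRE").

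RNA-seq libraries held 24726706 to 30748268 counts and Ribo-seq libraries 2604223 to 11147904, with KO1 at both ends of the Ribo-seq range (replicate 2 was the smallest, replicate 1 the largest). The count of the Eef1d transcript with exon 5 was 116.0 to 116.2% of that of the transcript without it in WT RNA-seq and 89.8 to 92.6% in the 6 KO RNA-seq libraries, and 112.6 to 113.9% against 96.0 to 98.9% in Ribo-seq. The transcripts share most of their reads, so the share cannot reach 0, and every KO library was below both WT libraries. Of 9 hepatocyte and hepatoma markers, 6 had at least 10 counts in both RNA-seq libraries of every line, while Ttr, Apoa1 and Serpina1a did not exceed 14 counts in any. The summed normalised count of this list was 995 to 1073 in WT, 395 to 397 for KO1, 770 to 826 for KO2 and 1465 to 1532 for KO3, so that the clones differed in it; its part in the results below was not tested. The erythroid hemoglobin genes Hbb-bs and Hbb-bt, the macrophage gene Adgre1 and the stellate cell gene Lrat were at 0 counts in every RNA-seq library. The 6 erythroid genes together reached at most 1.04 CPM, the 5 leukocyte genes 9.33 and the 3 endothelial genes 0.962. The 4 stellate cell and fibroblast genes summed to 297 to 462 CPM, nearly all of it Dcn.

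Levels are given as CPM, counts scaled by TMM and by the total of the library (counts per 1e6), and translation efficiency (TE) as footprint CPM over RNA-seq CPM of the same lysate, in which length cancels. In WT cells, both ferritin mRNAs were abundant and had few counted footprints for their RNA. Per kilobase of coding sequence, Fth1 mRNA ranked 94 and Ftl1 mRNA 104 from the highest of 22217 genes, at 875 and 824 CPM per kb. Their TE was the opposite. TE of Fth1 was 0.0596 and 0.0521 in the 2 WT lysates, where it ranked 9 and 5 from the lowest of 9634 genes with at least 10 counts in every WT library. TE of Ftl1 was 0.0477 and 0.0391, at rank 3 and 2. The median TE of the 9634 genes was 0.924 and 0.93, and the 5th percentile 0.282 and 0.292, so both ferritins lay far under the lowest 5% of genes.

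Slc40a1, the third gene with a 5′ UTR match, also had a low TE, 0.103 and 0.0907 at rank 36 and 22 from the lowest, on footprint counts of 26 and 19. Tfrc was at the other end, with a TE of 2.36 and 2.3, above 97.2% and 96.9% of the ranked genes. Its mRNA, at 50.1 CPM per kb, ranked 1407 from the highest. The genes without a match in the transcript used lay between them. TE was 1.24 and 1.37 for Flvcr1 (percentiles 72.6 and 79.1), 0.979 and 1.03 for Aco1 (54.2 and 58.1), 0.787 and 1.15 for Slc11a2 (38.5 and 66.3), and 0.584 and 0.771 for Ireb2 (22.7 and 37.1). The order of the genes by TE was the same in both WT lysates apart from Slc11a2 and Aco1, which changed places.

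Other genes whose 5′ UTR holds the same pattern had a wide range of TE. Of the 18 genes with a full 5′ UTR match, 12 could be ranked in WT cells, and their median TE percentile was 42 and 48.4, with 6 of them under the median of all genes in both lysates. The lowest were Ftl1, Fth1, Slc40a1 and then Vti1b, at percentiles 4.01 and 4.46. Eif2s1, which encodes a subunit of the initiation factor eIF2, lay at percentiles 91.1 and 89.3. Ftl1-ps1, a second copy of Ftl1 in the table, had a TE of 0.847 and 0.703. Alas2, the erythroid enzyme of heme synthesis, has a known IRE but too few counts to be ranked. Of the 104 genes with a full 3′ UTR match, Tfrc among them, 68 could be ranked. Their median TE percentile was 42.1 and 44.1, and 35 of them were under the median of all genes in both lysates. The high TE of Tfrc was thus not typical of genes with such a match.

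Coding sequences that recur in the genome limit how well the ferritin counts can be assigned. Of all 30-base windows of the Ftl1 coding sequence, 88.5% also occur exactly elsewhere in GRCm38, at 23 other loci, and 81.2% of its 100-base windows do. For Fth1 the shares were 23.8% and 1.78%, at 3 other loci, and for the other 6 genes 0% at both lengths. The study's summary of its reads ends with those mapped to a single place. Reads that fit several loci may thus have been dropped, and more so for short footprints than for RNA-seq reads. The levels and TE of Ftl1 and, less so, Fth1 are therefore uncertain. The part of these copies in the low TE was not tested. The Ftl1 transcript without the IRE, ENSMUST00000210864.1, which shares reads with the main one, had a WT TE of 0.0776 and 0.0644.

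**Figure D2:**
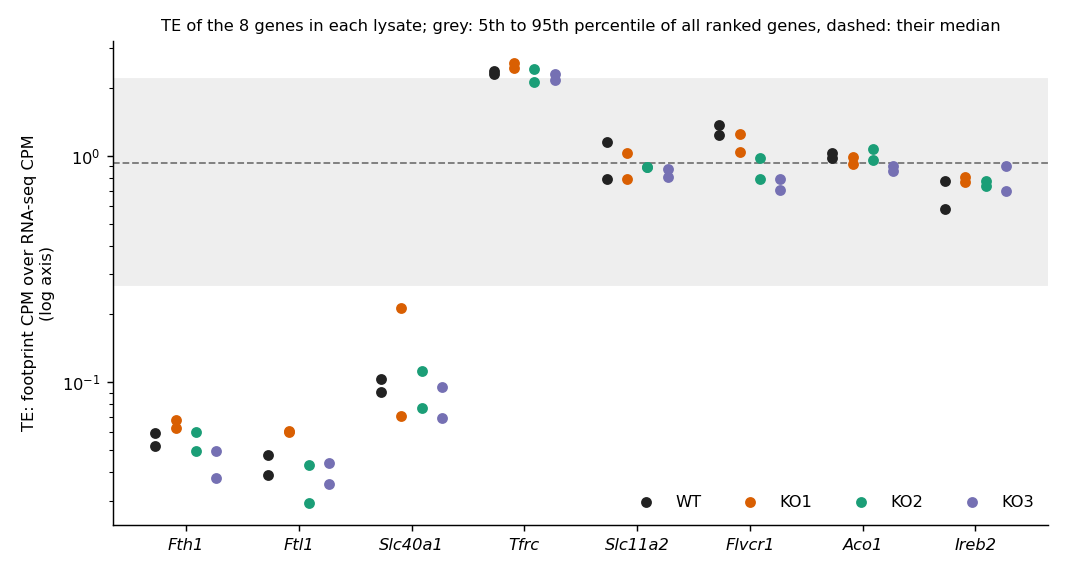
Each point is the TE of a gene in 1 lysate (y axis, footprint CPM over RNA-seq CPM, log axis) for the 4 lines, with a grey band from the lowest 5th to the highest 95th percentile of the ranked genes over the 8 lysates and the mean of their medians dashed. Fth1, Ftl1 and Slc40a1 lie below the band in all 8 lysates, and the 8 Tfrc points, from 2.12 to 2.56, lie near or above its upper edge.

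The ends of this order were held by the same genes in every line. In the 6 KO lysates, Fth1 ranked 4 to 11 and Ftl1 2 to 5 from the lowest TE, among 8538 to 9880 genes, and Tfrc lay at percentiles 96.2 to 97.3. Slc40a1 ranked 17 to 45 from the lowest in the KO2 and KO3 lysates; in KO1 it had 52 and 5 footprint counts and was not ranked.

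Each clone was compared with WT cells for RNA, footprints and TE. In a comparison of 1 single-cell clone with WT cells, loss of exon 5 and other differences of that clone cannot be told apart. The comparisons share the 2 WT libraries of each assay. Some of the mRNAs changed in every clone, but not the same way in each. In KO1, RNA of 6 of the 8 genes passed the test, 2 higher and 4 lower, where 40.6% of all 37569 transcripts tested were called. In KO2 there were 3 (2 higher, 1 lower; background 15.4%), of which 1 was left without either WT replicate and 0 with DESeq2, and in KO3 6 (1 higher, 5 lower; background 37.0%). The median log2 change of the 8 genes was -0.15 for KO1, 0.09 for KO2 and -0.20 for KO3, and that of all transcripts was between -0.0042 and 0.0024. Footprints of 3 genes passed in KO1 (2 higher, 1 lower; background 23.0%) and of 5 in KO3, all lower (background 24.5%), of which 3 were left without WT replicate 2 or with DESeq2. In KO2, 0 of the 8 genes were called for footprints by edgeR (background 8.72%), and DESeq2 called 0. An unadjusted p under 0.05 was found for 1 of the 8, where 6792 of all 32278 transcripts tested had one. In these bulk lysates, less mRNA in each cell and fewer cells with the mRNA cannot be told apart.

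For TE, 0 of the 8 genes were called by edgeR in any clone, where 0.168% of all transcripts were called for KO1, 0.0157% for KO2 and 0.0939% for KO3. With an unadjusted p under 0.05 there were 2 genes for KO1 (Ftl1 and Slc40a1), 1 for KO2 (Flvcr1) and 2 for KO3 (Fth1 and Flvcr1). Over all transcripts tested, 2879 of 38614 were under it for KO1, 1797 of 38293 for KO2 and 2446 of 38347 for KO3. DESeq2 called 0 in each clone, and gave no adjusted p for 5 of the genes in KO1 and 2 in KO3. Blocking on the lysate raised the number of transcripts called for TE in KO1 from 65 to 295 and in KO2 from 6 to 10, lowered it in KO3 from 36 to 33, and called 0 of the 8 genes in each clone. A block on the replicate number and a fit with no filter on low counts each called 1 of the 8, Flvcr1 in KO3.

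**Figure D3:**
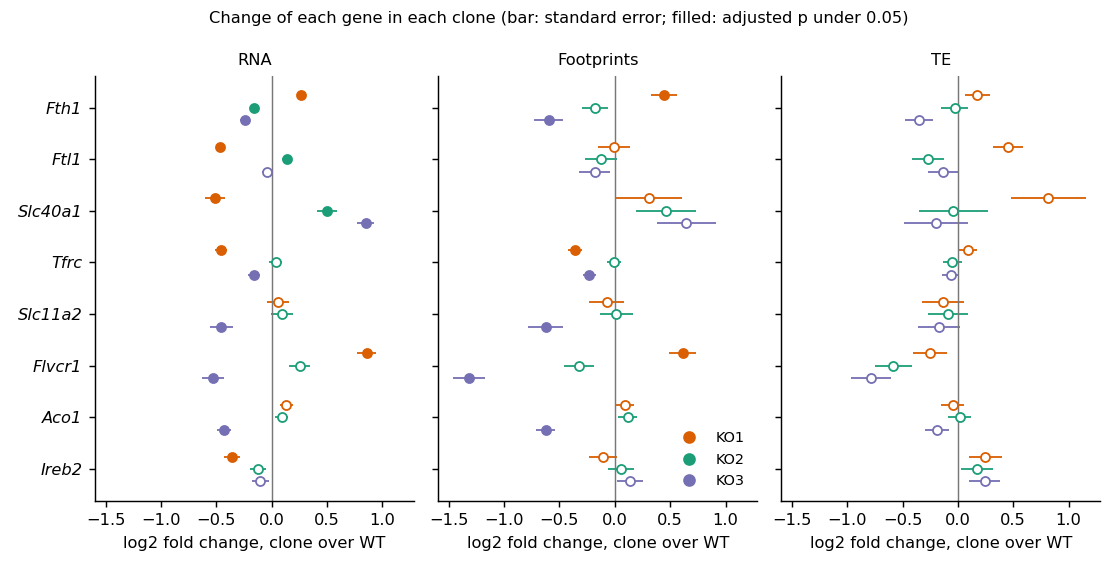
Points are log2 fold changes of each gene in each clone over WT (x axis) for RNA, footprints and TE, with approximate standard errors as bars. Filled points passed an adjusted p of 0.05, which holds for 15 RNA points, 8 footprint points and 0 TE points.

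Ferritin heavy chain mRNA, Fth1, rose in KO1 and fell in KO2 and KO3. RNA of Fth1 was 445 and 463 CPM in WT, 537 and 553.5 for KO1, 399 and 413 for KO2, and 382 and 382 for KO3, so no clone overlapped WT. The log2 changes were 0.26 ± 0.0365 (approximate standard error, adjusted p by edgeR = 2.19e-08), -0.16 ± 0.0428 (0.0119) and -0.24 ± 0.0411 (2.72e-06). Footprints rose in KO1 and fell in KO3 as well. They were 26.5 and 24.15 CPM in WT, 33.7 and 37.5 for KO1, 24.09 and 20.6 for KO2, and 19.0 and 14.3 for KO3, with log2 changes of 0.45 ± 0.120 in KO1 (adjusted p = 0.00252) and -0.60 ± 0.130 in KO3 (0.000305). The call for RNA in KO2 was lost without WT replicate 1 (adjusted p = 0.0776), without WT replicate 2 (0.312) and with DESeq2 (0.0635). That for footprints in KO1 was lost without WT replicate 2 (0.0761), and both footprint calls were lost with DESeq2 (0.159 for KO1 and 0.0522 for KO3). In KO2 the footprint change of -0.18 did not pass (adjusted p = 0.427). TE of Fth1 was 0.0627 and 0.0678 for KO1, 0.0604 and 0.0499 for KO2, and 0.0496 and 0.0376 for KO3, and none of these differed from WT by the test (adjusted p of 0.794, 1.00 and 0.566).

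Ferritin light chain mRNA, Ftl1, fell in KO1, where Fth1 rose. RNA of Ftl1 was 418 and 442 CPM in WT, 304 and 319 for KO1, 455 and 491 for KO2, and 407 and 425 for KO3. The log2 change was -0.47 ± 0.0393 for KO1 (adjusted p = 2.03e-15) and 0.14 ± 0.0452 for KO2 (0.0334), while -0.04 for KO3 did not pass (0.434). The KO2 call was lost without WT replicate 1 (adjusted p = 0.426), WT replicate 2 (0.0721) or KO2 replicate 2 (0.108), with DESeq2 (0.158) and on gene sums (0.0894). Footprints of Ftl1 stayed between 14.4 and 19.9 CPM in all 8 libraries and overlapped WT in every clone, with adjusted p from 0.361 to 0.981. TE of Ftl1 was 0.0611 and 0.0601 for KO1, above both WT lysates, 0.0432 and 0.0293 for KO2 and 0.044 and 0.0354 for KO3. Against WT, the KO1 value was a log2 change of 0.46 ± 0.136 with an unadjusted p of 0.00156, which did not hold after adjustment over all transcripts by edgeR (0.236).

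Between the clones, the TE of both ferritin chains did differ. A test that the 3 clones are equal gave an adjusted p of 0.00272 for Ftl1 and 0.0476 for Fth1, where 1.06% of all transcripts were called; the other 6 genes were not called, with adjusted p from 0.180 to 0.994. KO1 was the highest line for both. TE of Ftl1 was lower in KO2 than in KO1 by a log2 change of -0.72 ± 0.144 (adjusted p = 0.00203) and lower in KO3 by -0.58 ± 0.144 (0.0251), and TE of Fth1 was lower in KO3 than in KO1 by -0.52 ± 0.126 (0.0229). Neighbours in the order of the 4 lines by TE were not shown to differ for any of the 8 genes. With 1 transcript per gene the adjusted p for Fth1 was 0.0707, so its call depends on the features fitted. The part of the Ftl1 copies in this difference was not tested. Both calls were lost without KO1 replicate 1, the deepest Ribo-seq library, which leaves KO1 with replicate 2, the smallest. The KO1 replicates had like values. TE in replicates 1 and 2 was 0.0611 and 0.0601 for Ftl1 and 0.0627 and 0.0678 for Fth1. The call for Fth1 was also lost without WT replicate 1 (0.0538), WT replicate 2 (0.0562), KO1 replicate 2 (0.158) or KO3 replicate 2 (0.581). With a lysate block, TE of Slc40a1 differed between the clones as well (0.0164); these checks of the clone differences were chosen after the data were seen.

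Transferrin receptor mRNA fell in KO1 and KO3, and its footprints fell with it. RNA of Tfrc was 109 and 118 CPM in WT, 80.3 and 85.3 for KO1, 121 and 111 for KO2, and 103 and 99.4 for KO3. Footprints were 256.1 and 272 CPM in WT, 197 and 218 for KO1, 255.9 and 268 for KO2, and 222 and 228 for KO3. Both KO1 and KO3 lay below WT in both assays without overlap, and KO2 overlapped WT in both. The log2 change of RNA was -0.46 ± 0.0546 in KO1 (adjusted p = 3.78e-10) and -0.16 ± 0.0550 in KO3 (0.0176), and that of footprints was -0.36 ± 0.0677 (8.52e-06) and -0.23 ± 0.0602 (0.00285). In KO3, both calls were lost without WT replicate 2 (adjusted p of 0.385 for RNA and 0.0676 for footprints), and that for RNA also without KO3 replicate 2 (0.0672), with DESeq2 (0.0614), on the second transcript (0.0751) and on gene sums (0.0975). TE of Tfrc was 2.45 and 2.56 for KO1, 2.12 and 2.42 for KO2 and 2.16 and 2.3 for KO3, and its log2 changes of 0.09 ± 0.0854, -0.05 ± 0.0858 and -0.07 ± 0.0798 did not pass (adjusted p from 0.881 to 1.00).

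Ferroportin mRNA differed between WT and each clone, lower in KO1 and higher in KO2 and KO3. RNA of Slc40a1 was 30.7 and 37.8 CPM in WT, 21.7 and 26.5 for KO1, 43.7 and 52.5 for KO2, and 59.5 and 63.55 for KO3, so the lines were in the order KO1, WT, KO2, KO3 with every step passing edgeR's test and no overlap. The log2 changes were -0.51 ± 0.0882 (adjusted p = 2.90e-06), 0.50 ± 0.0910 (0.000319) and 0.85 ± 0.0743 (5.87e-14). The KO2 call was lost with DESeq2 (adjusted p = 0.0956) and on the second Slc40a1 transcript (0.31, adjusted p = 0.373). Footprints were few. They came to 26 and 19 counts in WT, 52 and 5 for KO1, 45 and 28 for KO2 and 54 and 33 for KO3, which is 3.16 and 3.42 CPM, 4.596 and 1.88, 4.88 and 4.03, and 5.695 and 4.43. None of the footprint changes passed (adjusted p of 0.528, 0.346 and 0.0663), though in KO3 it did without KO3 replicate 2 (0.80, 0.0403). TE in KO1 was 0.212 in replicate 1 and 0.0707 in replicate 2, on either side of WT, so the fitted log2 TE change of 0.82 ± 0.340 (adjusted p = 0.545) rested on replicate 1, and without it the change was -0.44. The 3 other Slc40a1 transcripts, which lack the IRE and hold only 60 counted codons, had 1 to 6 footprint counts a library and cannot bear a comparison of TE with and without the IRE.

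Slc11a2 and Aco1 both had lower RNA and lower footprints in KO3, and neither passed in KO1 or KO2. RNA of Slc11a2 was 17.9 and 15.65 CPM in WT, 18.1 and 16.7 for KO1, 17.9 and 17.8 for KO2, and 11.7 and 12.7 for KO3. Its footprints were 14.1 and 18.02 CPM in WT, 14.2 and 17.3 for KO1, 15.95 and 15.85 for KO2, and 10.2 and 10.2 for KO3. In KO3 the log2 change was -0.46 ± 0.104 for RNA (adjusted p = 0.000358) and -0.63 ± 0.158 for footprints (0.00192), and the latter call was lost without WT replicate 2 (0.0675) and with DESeq2 (0.110). The second transcript, which carries the 3′ UTR match, shares most of its coding sequence with the first, and its KO3 changes were -0.44 for RNA (adjusted p = 0.000620) and -0.65 for footprints (0.00128). TE of the first transcript was 0.786 and 1.03 for KO1, 0.891 and 0.892 for KO2 and 0.874 and 0.804 for KO3, overlapping WT in each (adjusted p from 0.925 to 1.00). Coding-sequence counts do not separate the forms with and without the IRE.

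RNA of Aco1, which encodes IRP1, the form that is also cytosolic aconitase, was 71.0 and 77.0 CPM in WT, 81.1 and 81.5 for KO1, 78.3 and 78.8 for KO2, and 56.7 and 52.5 for KO3. Its footprints were 69.6 and 79.65 CPM in WT, 80.3 and 75.0 for KO1, 84.1 and 75.6 for KO2, and 50.8 and 44.8 for KO3. Both assays were lowest in KO3, without overlap, with log2 changes of -0.43 ± 0.0636 (adjusted p = 1.43e-07) for RNA and -0.63 ± 0.0868 (5.29e-08) for footprints. RNA in KO1, though above WT in both replicates, did not pass (0.13, adjusted p = 0.0582), but did with a replicate block (0.0131). TE of Aco1 was 0.99 and 0.921 for KO1, 1.07 and 0.96 for KO2, and 0.897 and 0.853 for KO3, where both lysates were below WT, and it did not pass in any clone (adjusted p from 0.823 to 1.00).

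Ireb2, which encodes IRP2, was called in 1 of its 9 comparisons with WT, the fewest of the 8 genes. RNA of Ireb2 was 41.1 and 40.4 CPM in WT, 31.1 and 32.7 for KO1, 36.3 and 38.1 for KO2, and 41.1 and 34.5 for KO3, and it passed in KO1 (log2 change -0.36 ± 0.0731, adjusted p = 6.09e-05). Without KO3 replicate 1 the KO3 change passed as well (-0.23, adjusted p = 0.0262). Its footprints ranged from 23.96 to 31.2 CPM over the 8 libraries and no clone differed from WT (adjusted p from 0.432 to 0.847). TE of Ireb2 was 0.808 and 0.769 for KO1, 0.775 and 0.737 for KO2, and 0.696 and 0.902 for KO3, overlapping WT in each (adjusted p from 0.762 to 1.00).

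**Figure D4:**
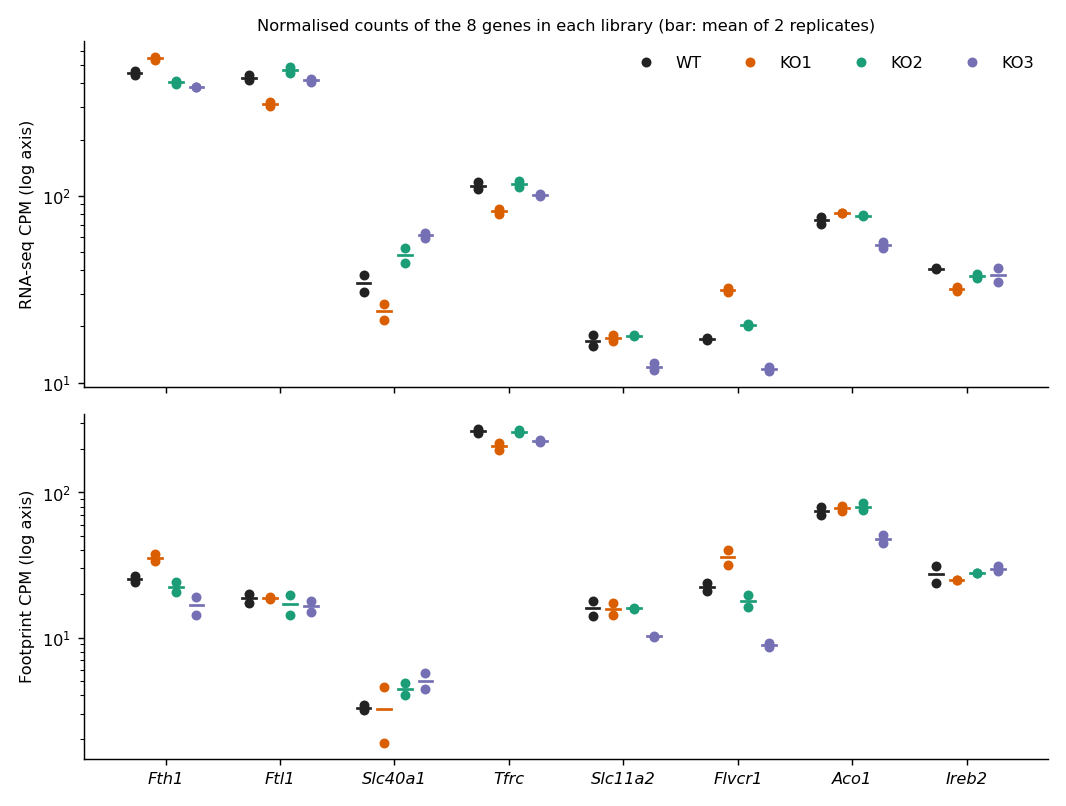
Points are normalised counts (CPM, log axis) of each gene in each RNA-seq library (top) and Ribo-seq library (bottom), by line, and bars are means of 2 replicates. Fth1 and Ftl1 are the highest of the 8 in RNA and fall to between 14.3 and 37.5 CPM in footprints, where Tfrc is the highest. The lowest point, 1.88 CPM on 5 counts, is for footprints of Slc40a1 in KO1 replicate 2, while KO1 replicate 1 lies above both WT points.

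Flvcr1 rose in KO1 and fell in KO3, in RNA and in footprints. RNA of its main transcript, ENSMUST00000085635.5, was 16.9 and 17.4 CPM in WT, 30.4 and 32.0 for KO1, 20.7 and 20.1 for KO2, and 11.6 and 12.1 for KO3. Footprints were 21.0 and 23.8 CPM in WT, 31.7 and 40.15 for KO1, 16.3 and 19.6 for KO2, and 9.18 and 8.58 for KO3. In KO1, RNA rose by a log2 change of 0.86 ± 0.0861 (adjusted p = 1.25e-12) and footprints by 0.61 ± 0.125 (4.39e-05). In KO3, RNA fell by 0.53 ± 0.102 on the log2 scale (2.88e-05) and footprints by 1.32 ± 0.148 (1.58e-10), that is, to 40.1% of WT. KO2 had more RNA and fewer footprints than WT in both replicates, but neither passed (0.25, adjusted p = 0.0738, and -0.32, 0.138); with a replicate block RNA did (0.0455).

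TE of the main Flvcr1 transcript was 1.24 and 1.37 in WT, 1.04 and 1.25 for KO1, 0.787 and 0.974 for KO2, and 0.793 and 0.708 for KO3. The KO3 log2 change of -0.79 ± 0.182 had an unadjusted p of 5.01e-05 and an adjusted p of 0.0520, just above the threshold, and the KO2 change of -0.58 ± 0.166 had 0.000829 and 0.882. The KO3 change passed with a replicate block (adjusted p = 0.0355) and with no filter on low counts (0.0376), and not with a lysate block (0.0654). The clones were not shown to differ in it (adjusted p = 0.261).

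The 3 Flvcr1 transcripts share reads, so they are not independent, and they gave different calls. ENSMUST00000191946.1 is a single-exon form of 237 counted codons, and ENSMUST00000192666.1 is annotated as subject to nonsense-mediated decay and has 237 counted codons too, against 551 in the main one. Counts of ENSMUST00000191946.1 were 177 and 193 in WT RNA-seq, 386 and 349 for KO1, 209 and 236 for KO2 and 165 and 154 for KO3, and 80 and 45, 141 and 36, 58 and 51, and 33 and 20 in Ribo-seq. Counts of ENSMUST00000192666.1 were 140 and 159 in WT RNA-seq, 310 and 275 for KO1, 177 and 188 for KO2 and 145 and 149 for KO3, and 103 and 66, 194 and 48, 81 and 72, and 41 and 34 in Ribo-seq. Counts of the main transcript were 440 and 485, 825 and 799, 526 and 590, and 348 and 354 in RNA-seq, and 173 and 132, 359 and 107, 150 and 136, and 87 and 64 in Ribo-seq, in the same order of lines. RNA of all 3 transcripts rose in KO1, but the fall of RNA in KO3 passed for the main transcript only.

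For ENSMUST00000192666.1, TE was 2.33 and 2.08 in WT, 1.5 and 1.63 for KO1, 1.26 and 1.62 for KO2, and 0.897 and 0.893 for KO3. Every KO lysate lay below both WT lysates, and the KO3 change of -1.31 ± 0.257 passed the test (adjusted p = 0.00715), the single TE call among the 27 of the 28 transcripts that could be tested. The changes in KO1 and KO2, -0.51 and -0.65, did not pass (adjusted p of 0.518 and 1.00). For ENSMUST00000191946.1 the KO3 change was -1.18 ± 0.281 with an adjusted p of 0.0665. This fall of Flvcr1 TE in KO3 was known from an earlier look at these data and is no independent finding. The call was lost without any 1 of the 4 replicates, with adjusted p of 0.300 and 0.0936 without WT replicate 1 and 2 and of 0.138 and 0.176 without KO3 replicate 1 and 2, while the log2 change stayed between -1.39 and -1.21.

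RNA of all 8 genes differed between the clones by the test that the 3 are equal, with adjusted p from 3.08e-17 (Slc40a1) to 0.0116 (Ireb2, 0.122 without KO1 replicate 1), where 66.4% of all transcripts were called. Footprints of 5 genes did, where 51.5% were called; these were Fth1, Tfrc, Slc11a2, Flvcr1 and Aco1, with adjusted p from 8.05e-22 (Flvcr1) to 0.000623 (Slc11a2). Ftl1, Slc40a1 and Ireb2 were not called (0.573, 0.498 and 0.193). KO1 had the highest RNA of Fth1, Flvcr1 and Aco1 and the lowest of Ftl1, Tfrc, Slc40a1 and Ireb2, and KO3 had the highest RNA of Slc40a1 and the lowest of Fth1, Slc11a2, Flvcr1 and Aco1. Not all of these places were separate from the next. Neighbours whose RNA was not shown to differ were KO3 and KO2 for Fth1, KO3 and WT for Ftl1, WT and KO2 for Tfrc and Flvcr1, the 3 lines above KO3 for Aco1 and Slc11a2, and the 3 lines above KO1 for Ireb2. In footprints, KO3 was the lowest line and apart from the next for Fth1, Slc11a2, Flvcr1 and Aco1, and KO1 was the highest and apart from the next for Fth1 and Flvcr1.

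Beyond the 8 genes, a list of 65 other iron and heme genes was followed, of which 51 or 52 were tested for RNA. In KO1, 14 were higher and 16 lower, in KO2 8 and 8, and in KO3 13 and 17, against the backgrounds of 40.6%, 15.4% and 37.0% given above. The medians of the tested genes were 0.01, -0.02 and -0.07. The uptake group, 6 of 9 genes tested, had 3 genes lower in each clone and 1 higher in KO2 and in KO3, with medians of -0.58, -0.33 and -0.41. The lower genes were not the same in each clone. Trf alone was called lower in every clone, and each gene called higher in KO2 or KO3 was called lower in another clone. Of the 5 tested mRNAs with another known IRE, 2 were higher and 3 lower for KO1, and 2 were higher and 1 lower for KO2 and for KO3. Of the 9 heme synthesis genes, 3 were higher and 4 lower for KO1, 2 higher for KO2, and 3 higher and 2 lower for KO3. Of the 13 genes of mitochondrial iron and iron-sulfur clusters, 2 were higher and 1 lower in KO1 and 4 were higher and 4 lower in KO3. In KO2, edgeR called 0 of them, with 4 at an unadjusted p under 0.05, where 10142 of all 37472 transcripts were. Footprints of 8 of the tested genes were higher and of 9 lower for KO1, of 4 and 7 for KO2, and of 7 and 13 for KO3, against backgrounds of 23.0%, 8.72% and 24.5%.

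By the rule for named genes, the listed genes whose RNA was called in the same direction in all 3 clones, which share their WT libraries, are Trf, Hpx and Cdc42bpa. In the whole table, RNA of 219 transcripts was higher and of 231 lower in all 3 clones, of 36758 tested in each. Trf, which encodes transferrin, the iron carrier of plasma, was lower, with 303 CPM in WT on average and 90.9 for KO1, 248 for KO2 and 195 for KO3 (log2 changes of -1.74 ± 0.0480, -0.29 ± 0.0496 and -0.63 ± 0.0472; adjusted p of 6.93e-38, 0.000177 and 2.44e-16). Hpx, which encodes the heme scavenger hemopexin, was lower, with 10.3 CPM in WT and 5.53, 5.61 and 2.33 in the clones (-0.90 ± 0.141, -0.89 ± 0.157 and -2.14 ± 0.168; 3.14e-07, 0.000228 and 1.19e-15). Cdc42bpa, a kinase whose mRNA has a known IRE, was higher, with 65.7 CPM in WT and 85.9, 96.3 and 76.1 in the clones (0.38 ± 0.0592, 0.56 ± 0.0603 and 0.22 ± 0.0606; 2.77e-07, 2.59e-07 and 0.00343). The call for Trf in KO2 was lost without WT replicate 1 (adjusted p = 0.0589), as was that for Cdc42bpa in KO3 (0.122). Trf is also in the hepatocyte list given above, whose sum was lower than in WT for KO1 and KO2, as Trf was, and higher for KO3, where Trf was lower; the part of that list in the Trf values was not tested.

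Trf in KO1 was the single call for TE among the listed genes, over the 3 clones. Its TE was 0.839 on average in WT and 1.27 in KO1, a log2 change of 0.55 ± 0.0895 (adjusted p = 0.000201). Footprints of Trf fell in KO1 by 1.18 ± 0.0732 on the log2 scale (4.30e-30), less than its RNA. In KO2 and KO3 the TE changes were 0.09 and -0.33 and did not pass (adjusted p of 1.00 and 0.0707), but with a lysate block the KO3 change did (0.0200). On counts summed over all transcripts of a gene, the KO1 change of 0.58 did not pass (0.237).

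**Figure D5:**
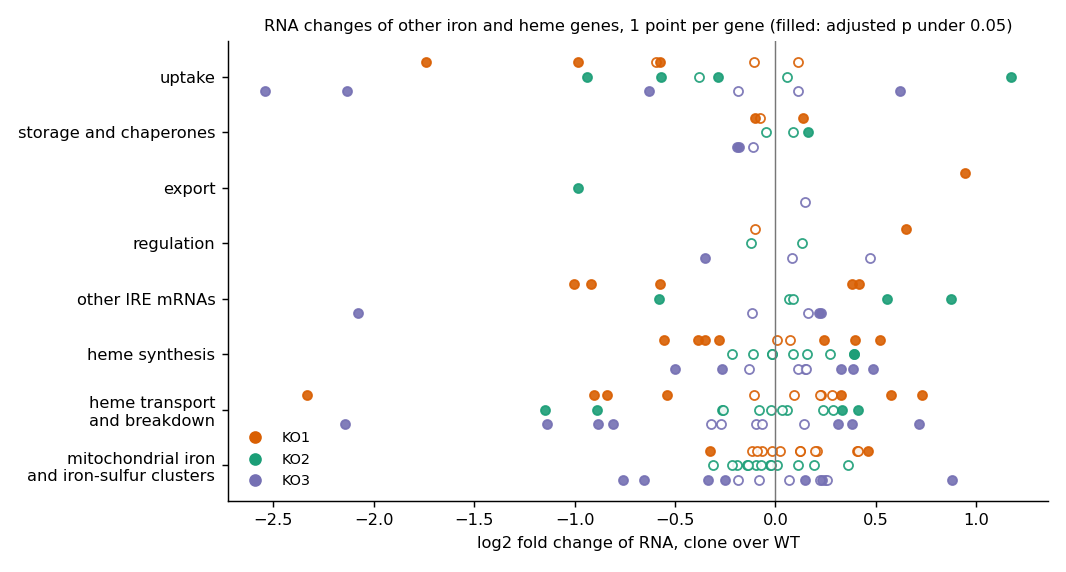
Each point is the log2 fold change of RNA (x axis) of 1 gene of the list in 1 clone over WT, by group, with filled points past an adjusted p of 0.05. The uptake points reach from -2.54 to 1.17, and those of mitochondrial iron and iron-sulfur clusters stay between -0.76 and 0.88.

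To place each gene among others, Pearson's r of log2 CPM was computed over the 8 RNA-seq libraries against 8142 genes with at least 100 counts in every RNA-seq library. The libraries are 2 replicates of 4 lines, so r mostly reflects the order of 4 line means and is given as a description. The 3 genes most like each were Hnrnpa1, Fmr1 and Clcc1 for Fth1 (r of 0.9952 to 0.9916), Usp31, Anln and Srebf2 for Ftl1 (0.9927 to 0.989), Zdhhc13, Jak2 and Senp6 for Tfrc (0.989 to 0.9812) and Slc44a1, Bloc1s6 and Arhgap1 for Slc40a1 (0.9878 to 0.9799). For the others they were Trim32, Sec61a1 and Tnpo1 for Slc11a2 (0.9905 to 0.9802), Rabggtb, Arl6ip5 and Supt6 for Flvcr1 (0.995 to 0.9912), Ripk2, Dnajc25 and Wsb1 for Aco1 (0.9915 to 0.9897) and Ide, Ak6 and Taf9 for Ireb2 (0.9741 to 0.9705). None of the 8 genes was among the 3 most like any other.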

How the data were processed

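RNA-seq and Ribo-seq were made from the same lysates of WT Hepa1-6 cells and 3 exon 5 KO clones. Cells were lysed with cycloheximide and chloramphenicol. Per the methods, the authors trimmed reads with fastp, aligned them with STAR to mm10 (GENCODE vM23) and deposited counts per transcript, with footprints placed by their A site and 5 codons left out at each end of a coding sequence. Where transcripts overlap, each of them counts the shared read. The labels name polyA RNA and the protocol rRNA depletion, so the selection of RNA is uncertain.

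All transcripts were fitted with edgeR 4.0.16 (R 4.3.3), with filterByExpr, TMM within each assay, the quasi-likelihood test, and Benjamini-Hochberg adjustment over all transcripts tested, at 0.05. RNA and footprints were fitted over 4 libraries (WT and 1 clone), TE as the interaction of line and assay over 8, and differences between the clones over all lines. Errors of log2 changes are approximate standard errors, n = 2 against 2. Each is the size of the log2 change over the square root of the quasi-likelihood F statistic. DESeq2 1.42.0 was an alternative. The scripts were tested on simulated data. UTRs were read from GENCODE vM21 on GRCm38, which held 99.3% of the transcripts. The 8 genes and the gene lists were chosen with earlier results of these data known. Genes named by rule beyond the 8 are, from a list of 65 iron and heme genes, those called for RNA in the same direction in each clone or for TE in any, and the 3 with the highest r to each of the 8. Outside this rule are the cell type markers, Flvcr2 and Alas2. So are Vti1b, Eif2s1 and Ftl1-ps1, picked from the genes with a full 5′ UTR match with their TE known. 

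The study's methods take RNA for both assays from 1 lysate, and libraries were paired here by the replicate number in their titles. Over 4014 genes with at least 50 counts in every library, the deviations of an RNA-seq library and its Ribo-seq partner correlated at r = 0.241 (WT), 0.286 (KO1), 0.123 (KO2) and 0.115 (KO3). Same-numbered libraries of WT and a clone, which share no lysate, correlated at 0.0973 to 0.305. These values therefore do not show the pairing by lysate. The number of library pairs with identical values was 0. Values of 1 gene of the list of 65 are not reported here on their own.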

Additional observations from a re-analysis of the deposited data

Results flagged for a closer look

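The 3 clones, set against each other in a single test over all lines, differed in 15 values of the 8 genes. In RNA they differed for all 8, with adjusted p by edgeR of 1.93e-14 for Fth1, 8.18e-15 for Ftl1, 1.05e-08 for Tfrc, 3.08e-17 for Slc40a1, 8.62e-06 for Slc11a2, 5.37e-17 for Flvcr1, 4.76e-11 for Aco1 and 0.0116 for Ireb2. In footprints they differed for 5, with 4.03e-11 for Fth1, 1.18e-05 for Tfrc, 0.000623 for Slc11a2, 8.05e-22 for Flvcr1 and 1.99e-13 for Aco1. In TE they differed for Fth1 (0.0476) and Ftl1 (0.00272), and both of these were lost without KO1 replicate 1 (0.231 and 0.446). KO1 and KO2 came from the same pair of guides and KO3 from another, and with 1 clone for that other pair the guides and the clone cannot be told apart.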

How the results depend on the processing

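Of 42 changes that passed the test, 0 had the other sign in any of 518 values under an alternative. The 42 were selected by passing and the alternatives reuse the same counts, so this 0 was largely set by that selection. Of 66 that did not pass, the sign turned in 47 of 853. Both counts cover the 8 genes and also the Flvcr1 transcript ENSMUST00000192666.1, Trf, Hpx and Cdc42bpa. Trf, Hpx and Cdc42bpa were named because their RNA was called in the same direction in each clone, so their signs were partly fixed by that choice. Of the 8 genes, the number called for RNA in KO2 moved from 3 to 0 with DESeq2, and that for footprints in KO3 from 5 to 3 with DESeq2. That for RNA in KO3 moved from 6 to 3 on each gene's second transcript. There, Tfrc (edgeR's adjusted p = 0.0751) and Flvcr1 (0.0575) lost the call, and Aco1, with 1 transcript, had none to test. The second Fth1 transcript has the same counts as the first. The number called for TE in KO3 moved from 0 to 1 (Flvcr1) with no filter on low counts (adjusted p = 0.0376) and with the replicate block (0.0355). With 1 transcript per gene, TE differed between the clones for 1 gene in place of 2. Leaving out 1 replicate at a time, where a lone sample is assumed to vary like the others, gave 1 to 3 genes for RNA in KO2, 3 to 6 for footprints in KO3 and, chosen after the data were seen, 0 to 2 for the clone difference in TE. The causes were not tested.

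Uncalled log2 changes took the other sign under these settings. On the second transcript they were 0.35 for footprints of Ireb2 in KO1, -0.10 for its footprints and -0.11 for its TE in KO2, and in KO2 0.0091 for footprints of Tfrc and -0.0026 for those of Slc11a2. On gene sums, footprints gave 0.0053 for Tfrc and -0.0820 for Slc11a2 in KO2 and -0.0085 for Cdc42bpa in KO3. DESeq2 gave 0.0089 for footprints of Ftl1 in KO1 and -0.0039 for those of Slc11a2 in KO2, and 1 transcript per gene gave 0.0047 for those of Tfrc in KO2. Without 1 replicate, RNA ran from -0.0443 to 0.152 for Slc11a2 in KO1, from -0.0275 to 0.10 for Tfrc in KO2 and from -0.23 to 0.0198 for Ireb2 in KO3. Footprints in KO1 ran from -0.019 to 0.17 for Aco1, -0.0955 to 0.11 for Ftl1, -0.31 to 0.0651 for Ireb2, -0.27 to 0.13 for Slc11a2 and -0.80 to 0.49 for Slc40a1. In KO2 they ran from -0.39 to 0.0638 for Ftl1, -0.15 to 0.23 for Ireb2, -0.18 to 0.17 for Slc11a2 and -0.0543 to 0.0295 for Tfrc, and in KO3 from -0.0655 to 0.31 for Ireb2. TE in KO1 ran from -0.42 to 0.13 for Slc11a2 and -0.44 to 1.15 for Slc40a1. TE in KO2 ran from -0.0654 to 0.0936 for Aco1, -0.18 to 0.0943 for Fth1, -0.25 to 0.40 for Hpx, -0.0372 to 0.36 for Ireb2, -0.37 to 0.17 for Slc11a2, -0.32 to 0.22 for Slc40a1 and -0.14 to 0.0494 for Tfrc. TE in KO3 ran from -0.31 to 0.0417 for Ftl1, -0.0197 to 0.44 for Hpx and -0.45 to 0.0831 for Slc11a2.

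In WT cells, the mean TE percentile on counts summed over all transcripts of a gene was 0.117 for Fth1 (0.0727 on the chosen transcript), 0.0632 for Ftl1 (0.0259), 95.7 for Tfrc (97) and 0.589 for Slc40a1 (0.301). Among genes with at least 100 counts it was 96.7 for Tfrc, 68.6 for Flvcr1 (75.8), 44.7 for Aco1 (56.1) and 19.6 for Ireb2 (29.9). Over all transcripts, DESeq2 called 9682, 3024 and 8786 for RNA and 2056, 663 and 2758 for footprints in KO1, KO2 and KO3, where edgeR called 15261, 5762 and 13880 and 7346, 2814 and 7988. For TE, gene sums left 3, 0 and 0 calls and 1 transcript per gene 11, 2 and 12, the lysate block made 295, 10 and 33 where no block made 65, 6 and 36, and a block on the replicate number made 253, 9 and 42. The labels do not tie replicate numbers across lines, and the deviations of same-numbered WT and KO libraries correlated at 0.305, 0.131 and 0.105 in RNA-seq and 0.202, 0.145 and 0.0973 in Ribo-seq; the replicate block also called RNA of Aco1 in KO1 (0.0131) and of Flvcr1 in KO2 (0.0455). Few footprints limit the TE of Slc40a1.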

Other observations

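Flvcr2, a paralog of Flvcr1, had called falls of footprints in each clone, with log2 changes of -3.46, -1.24 and -0.55; it lies outside the rule for named genes and was chosen after its values were seen. The copy Ftl1-ps1 had a WT TE of 0.847 and 0.703, where Ftl1 itself had 0.0477 and 0.0391; the part of reads shared between the copies was not tested.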
